A study of Mus musculus with 6 samples.

Results

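The comparison was between T helper type 2 (Th2) cells of wild-type (WT) mice on day 6 of culture and on day 3. The libraries were chosen by their titles, and gene tables were used where an entry had a status of OK. They are 2 of the 6 libraries of the series, 1 library per day, so a difference is between libraries and has no replicate check. Both came from CD4 T cells of spleen and lymph nodes of C57/Bl6j mice aged 7 weeks, with no transgene or deletion named. Naive cells were put on plates coated with antibodies to CD3 and CD28 and kept in 10 ng/ml IL-4 with an antibody that blocks interferon gamma. RNA of 300000 cells was depleted of ribosomal RNA, per the labels' protocols. The pair set beside them has the same 2 days from mice lacking NLRP3 (NLRP3KO), the sensor of an inflammasome. The sources used here give neither the number of mice behind each library nor their sex.

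Th2 cells are the helper cells of immunity to worms and of allergy. IL-4 acts through its receptor and STAT6 to raise GATA3, the factor that opens the genes of the type 2 cytokines IL-4, IL-5 and IL-13. In such cultures, naive cells first leave the resting state and divide, driven by the T cell receptor, CD28 and IL-2. IL-2 acts through STAT5, which turns on its own feedback inhibitors, among them Cish and the Socs genes, and the survival kinases Pim1 and Pim2.

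Values are FPKM, fragments scaled to transcript length and to library size, as the authors deposited them, and brackets hold the deposited lower and upper confidence bounds. Log2 differences are day 6 over day 3 after scaling by the median ratio of 1059 genes and adding 1. Fragments per gene were inferred from the bounds. The day 6 library held about 34680 fragments on genes and the day 3 library about 33471. The totals used for normalization were far larger, 562337 fragments at day 6 and 604216 at day 3. Rn45s, the precursor of ribosomal RNA, was listed at 53218 FPKM at day 6 and 57645 FPKM at day 3. Ribosomal RNA thus remained after depletion in both libraries, and it is not counted in the fragments on genes. On a transcript of 2 kb, 3 fragments correspond to 2.67 FPKM at day 6 and 2.48 FPKM at day 3. The libraries are shallow, and most single genes rest on a few fragments. Intervals on ratios are exact 95% intervals for counting error only, since PCR products without molecular identifiers are not independent molecules. In bulk RNA, fewer cells of a type and less RNA per cell cannot be told apart.

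The libraries of the days differed in transcripts of the sex chromosomes. Xist (mm9 chrX:100655712-100678572), the noncoding RNA that coats the inactive X chromosome in female cells, was listed at 0 FPKM at day 6, against 13.7 FPKM (11.2 to 16.2) and about 148.4 fragments at day 3. The interval of the ratio of day 6 over day 3 reached up to 0.0246. The same split was seen in the NLRP3KO pair, with Xist at 0 FPKM at day 6 and 17.6 FPKM (14.4 to 20.7) at day 3. Naive cells had 27.1 FPKM in WT and 37.8 FPKM in NLRP3KO.

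Genes of the Y chromosome went the other way. They were looked at after the Xist value was seen. In the WT day 6 library 3 of 14 entries on the Y chromosome were above 0, against 0 of 14 in the WT day 3 library. Kdm5d, a histone demethylase, had 1 FPKM (0 to 1.95) at day 6 and was listed at 0 at day 3. Uty, its relative, had 0.699 FPKM (0 to 1.7), and the RNA helicase gene Ddx3y 0.395 FPKM (0 to 1.15), both listed at 0 at day 3. Each of these values lies on 1 to 4.5 fragments. In the NLRP3KO day 6 library the translation factor gene Eif2s3y had 14.3 FPKM (0 to 26.2) on about 3.4 fragments, and the naive and day 3 libraries were at 0 for all 14 entries. Ddx3x, an X-linked partner of these genes, had 2.81 FPKM (0.778 to 4.67) at day 6 and 2.99 FPKM (1.09 to 4.71) at day 3. Culture day and a difference in the sex of the donor mice cannot be told apart in this pair.

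**Figure D1:**
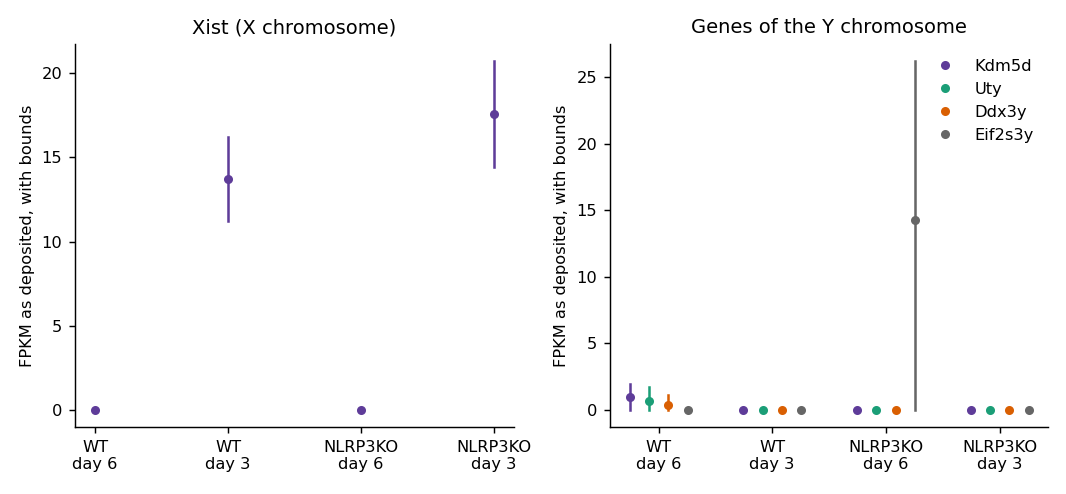
FPKM of Xist (left) and of 4 genes of the Y chromosome (right) in the 4 Th2 libraries, with lines from the deposited lower to the upper bound. Xist is at 0 in both day 6 libraries and at 13.7 and 17.6 FPKM in the day 3 libraries, while the Y genes above 0 are in day 6 libraries.

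Across all genes, 5592 reached an FPKM of 1 in either WT library. Of these, 1346 (24.1%) were at least 2-fold higher at day 6 and 1129 (20.2%) at least 2-fold lower. Every count of list members given below is to be read beside these shares. Without genes on the X and Y chromosomes the counts were 1307 and 1093. Low depth bears on both counts. The share of genes at least 2-fold apart was 62.9% among genes with under 5 fragments in the pair and 10.4% among the 106 genes with at least 50, and 1607 genes (28.7%) were listed at 0 in 1 of the libraries. Among the 3985 genes above 0 in both, 462 (11.6%) were at least 2-fold higher and 406 (10.2%) lower. The median log2 difference of those 3985 genes was -0.03.

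A stricter class holds the genes above 0 in both libraries whose bounds do not overlap. With bounds as deposited, 26 genes (0.652%) were higher at day 6 and 7 (0.176%) lower, and 24 (0.602%) and 7 of them were also at least 2-fold apart. This split depended on the scaling. When the bounds of each library were multiplied by its scaling factor, 9 genes (0.226%) were higher and 18 (0.452%) lower. All 7 lower genes were apart on both scales, and so were 9 of the 26 higher ones, among them Lsm4, Tcof1, Gltscr2, Cish, Atf4, Ddx42, Etnk1 and the histone gene Hist1h2bc.

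**Figure D2:**
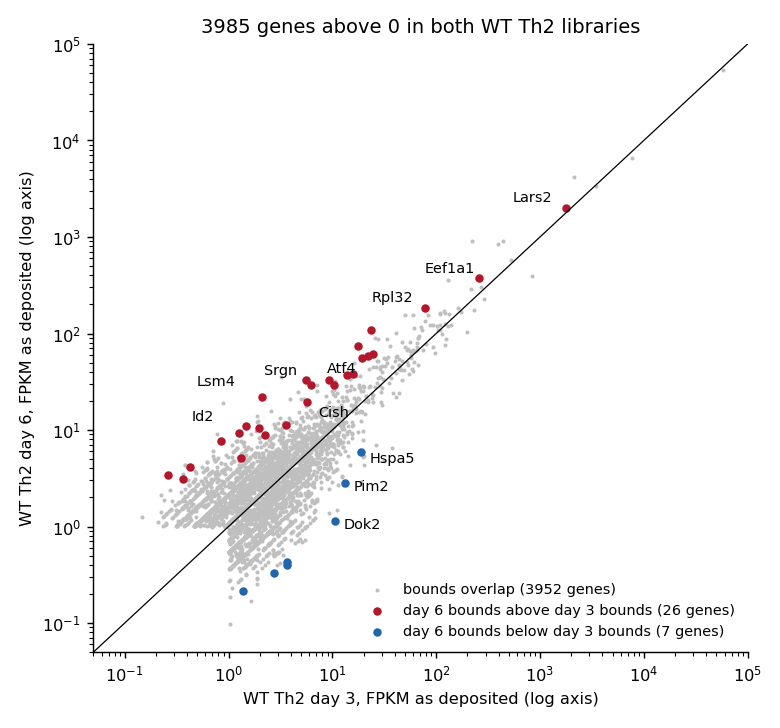
FPKM at day 6 (vertical) against day 3 (horizontal) for the 3985 genes above 0 in both WT Th2 libraries, on log axes, with the line of equal values. Red points are the 26 genes whose deposited bounds at day 6 lie above those at day 3, blue points the 7 genes whose bounds lie below.

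Feedback inhibitors and targets of IL-2 and STAT5 went in different directions. Cish (mm9 chr9:107199020-107204292), which binds activated cytokine receptors and damps STAT5 signalling, had 19.4 FPKM (11.5 to 27.2) at day 6, against 5.75 FPKM (2.3 to 9.96) at day 3. The log2 difference was 1.53, and the ratio of 23.5 to 7.5 fragments was 2.92 (1.27 to 7.52). Pim2 (chrX:7455432-7460558), a survival kinase, had 2.81 FPKM (0 to 5.23) at day 6 and 13.1 FPKM (6.49 to 19.5) at day 3, a log2 difference of -2.16 and a ratio of 0.183 (0.0341 to 0.638). Its relative Pim1 had 19.8 FPKM (11.2 to 28.4) at day 6 and 20.6 FPKM (12.3 to 29.3) at day 3, well inside each other's bounds. Lif, a cytokine of the IL-6 family, was listed at 0 at day 6 and had 3.63 FPKM (0.881 to 6.77) at day 3, and the interval of its ratio reached up to 0.57. Socs2 had 3.68 FPKM (0 to 10.1) at day 6 and 7.18 FPKM (1.59 to 14.4) at day 3, with bounds that overlap.

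Of the 17 genes of this list with an FPKM of at least 1, 1 was at least 2-fold higher at day 6, 5 were lower and 11 were within 2-fold. Among all genes kept, 24.1% were higher and 20.2% lower by as much. The main receptor chain had overlapping bounds. Il2ra, the high-affinity chain of the IL-2 receptor, had 23.4 FPKM (17.3 to 29.3) at day 6 and 24 FPKM (17.9 to 29.9) at day 3. Pooled over the list, fragments were 235 at day 6 and 248 at day 3, a ratio of 0.922 (0.768 to 1.11).

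The promoters of Cish and Pim2 are shown because these are STAT5 pathway genes that went opposite ways. Each sequence is the RefSeq window of 250 bases before and 50 bases after the gene start on GRCm38.p6, which is another build than that of the tables. Capitals mark matches to TTCNNNGAA, the palindromic core bound by STAT proteins, which reads alike on both strands. Cish lies at chr9:107296409-107296708 and Pim2 at chrX:7878056-7878355, both on the plus strand.
Cish: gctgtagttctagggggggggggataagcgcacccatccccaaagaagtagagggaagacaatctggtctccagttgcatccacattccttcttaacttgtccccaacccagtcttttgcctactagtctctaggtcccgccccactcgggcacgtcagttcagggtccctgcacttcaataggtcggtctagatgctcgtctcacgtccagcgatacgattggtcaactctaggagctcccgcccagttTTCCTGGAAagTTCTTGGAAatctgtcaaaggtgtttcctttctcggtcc
Pim2: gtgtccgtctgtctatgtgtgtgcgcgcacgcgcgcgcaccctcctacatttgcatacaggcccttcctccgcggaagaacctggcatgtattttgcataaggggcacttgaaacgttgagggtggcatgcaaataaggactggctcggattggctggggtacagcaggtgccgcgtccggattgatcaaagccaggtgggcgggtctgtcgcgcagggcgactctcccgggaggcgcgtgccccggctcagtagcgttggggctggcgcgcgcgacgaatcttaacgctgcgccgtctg

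The Cish window holds 2 matches that do not overlap, TTCCTGGAA from base 1 and TTCTTGGAA from base 12, counted from the gene start. The Pim2 window holds 0 matches, which says only that these letters are not in this stretch. Of the 32851 promoter windows in the RefSeq table, 2726 (8.3%) hold at least 1 match.

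Stress response genes also split. Atf4 (mm9 chr15:80085614-80087971), the transcription factor of the amino acid response, had 29.2 FPKM (18.6 to 40.2) at day 6, against 10.5 FPKM (4.8 to 16.3) at day 3. The log2 difference was 1.29 and the ratio 2.48 (1.2 to 5.52). Hspa5 (chr2:34627610-34632049), the main chaperone of the endoplasmic reticulum, had 5.94 FPKM (1.46 to 11.1) at day 6 and 18.8 FPKM (11.4 to 26.1) at day 3. Its log2 difference was -1.71 and its ratio 0.278 (0.0667 to 0.886), on 4 and 13.5 fragments.

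Neither gene stood for its list. Of 22 genes of the amino acid response and serine synthesis, 2 were at least 2-fold higher at day 6 and 2 lower. Atf5 and Sesn2, a related factor and a stress-induced protein, were the lower ones, at 4.46 and 2.12 FPKM at day 6, against 8.75 and 5.94 FPKM at day 3. The enzyme gene Shmt2 had 16.5 FPKM (9.07 to 24.7) at day 6 and 16.9 FPKM (9.2 to 24.5) at day 3. The list pooled to a ratio of 1.08 (0.884 to 1.32). Of 24 genes of endoplasmic reticulum chaperones and the unfolded protein response, 2 were at least 2-fold higher and 4 lower, with a pooled ratio of 0.968 (0.776 to 1.21). Pdia3, a disulfide isomerase, was among the lower ones with 0.711 FPKM (0 to 2.02) at day 6 and 4.64 FPKM (1.25 to 7.52) at day 3. The chaperone gene Hsp90b1 had 12.2 FPKM (7.09 to 17.4) at day 6 and 8.23 FPKM (4.2 to 12) at day 3.

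The Hspa5 promoter is shown for the endoplasmic reticulum stress element, CCAAT and CCACG with any 9 bases between them, searched on both strands and set in capitals. The window is chr2:34771840-34772139 on GRCm38.p6, plus strand, from RefSeq.
Hspa5: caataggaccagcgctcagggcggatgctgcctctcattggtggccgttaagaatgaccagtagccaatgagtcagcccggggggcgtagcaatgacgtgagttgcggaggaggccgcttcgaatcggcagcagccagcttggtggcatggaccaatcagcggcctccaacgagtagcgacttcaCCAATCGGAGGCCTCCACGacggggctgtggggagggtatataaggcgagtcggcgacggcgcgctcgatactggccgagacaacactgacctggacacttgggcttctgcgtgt
It holds 1 match, which begins at base -65 from the gene start. Among the 32851 windows, 39 (0.119%) hold this element.

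Genes of the protein synthesis machinery were among the most abundant, and single members differed while the pooled level of ribosomal proteins did not differ beyond counting error. Rps3, a protein of the small ribosomal subunit, had 63.4 FPKM (46.4 to 80.5) at day 6 and 98 FPKM (75.8 to 120) at day 3. Its bounds were apart only after scaling, with a ratio of 0.595 (0.417 to 0.841), and it was picked after its values were seen. Rpl32 and Rps6 had 186 and 37 FPKM at day 6, against 78.6 and 13.9 FPKM at day 3, with bounds apart only as deposited. Of 35 cytosolic ribosomal protein genes, 6 were higher by 2-fold or more, 3 were lower by as much, and 870 fragments at day 6 stood against 799 at day 3, a ratio of 1.06 (0.962 to 1.17). Ribosomal protein genes share reads with many pseudogenes, so their single values are uncertain.

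Tcof1, which supports transcription of ribosomal RNA genes, had 8.93 FPKM (5.27 to 13) at day 6, against 2.27 FPKM (0 to 4.54) at day 3, with a ratio of 3.73 (1.48 to 11.2). Gltscr2, a nucleolar protein also known as Nop53, had 32.6 FPKM (20.6 to 44.5) at day 6 and 9.38 FPKM (3.19 to 14.9) at day 3, a ratio of 3.14 (1.45 to 7.53). Of 21 genes of ribosome biogenesis, 7 were higher by 2-fold or more and 3 were lower by as much, where all genes kept had 24.1% and 20.2%. The pooled ratio of this list was 0.919 (0.741 to 1.14). Bop1, needed for the large subunit, had 6.09 FPKM (1.52 to 11.4) at day 6 and 0.71 FPKM (0 to 3.55) at day 3. Fbl, the methyltransferase of ribosomal RNA, had 0.873 FPKM (0 to 3.07) at day 6 and 3.27 FPKM (0 to 7.14) at day 3.

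Eef1a1, the factor that brings aminoacyl-tRNA to the ribosome, had 376 FPKM (316 to 413) at day 6 and 260 FPKM (215 to 296) at day 3, a log2 difference of 0.39. Translation factors pooled to 868 fragments at day 6 and 753 at day 3, a ratio of 1.12 (1.02 to 1.24), with 2 of 28 genes at least 2-fold higher and 0 lower. Without Eef1a1 the ratio was 1.05 (0.938 to 1.19), so this list rested on that gene. Tpt1, the translationally controlled tumour protein, had 59 FPKM (33.8 to 83.5) at day 6 and 22.1 FPKM (9.26 to 33.3) at day 3.

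Among genes of RNA processing, Lsm4 had the highest log2 difference of the genes with bounds apart. Lsm4 belongs to the ring that binds the U6 spliceosomal RNA and to the ring that acts in decay of mRNA. It had 22.2 FPKM (9.44 to 34) at day 6, against 2.08 FPKM (0 to 5.27) at day 3, a log2 difference of 3.00. The interval of its ratio was wide, 1.56 to 461, since it rested on 10.8 and 1.1 fragments. Of the 21 Sm and LSm genes kept, 6 were at least 2-fold higher and 6 lower, where all genes kept had 24.1% higher and 20.2% lower. Tra2a, a splicing regulator, had 7.38 FPKM (2.92 to 12.6) at day 6 and was listed at 0 at day 3. Hnrnpc, which binds nascent transcripts, had 5.99 FPKM (0.674 to 11.3) at day 6 and 13.2 FPKM (6.89 to 20.1) at day 3. Of 27 splicing factor and hnRNP genes, 3 were higher, 1 was lower and 23 were within 2-fold. Ddx42, an RNA helicase, and Etnk1, a kinase of phospholipid synthesis, were under the level set for naming and are given because they were apart on both scales. Ddx42 had 4.13 FPKM (1.77 to 6.65) at day 6 and 0.428 FPKM (0 to 1.24) at day 3. Etnk1 had 3.39 FPKM (1.66 to 5.25) at day 6 and 0.263 FPKM (0 to 0.772) at day 3.

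**Figure D3:**
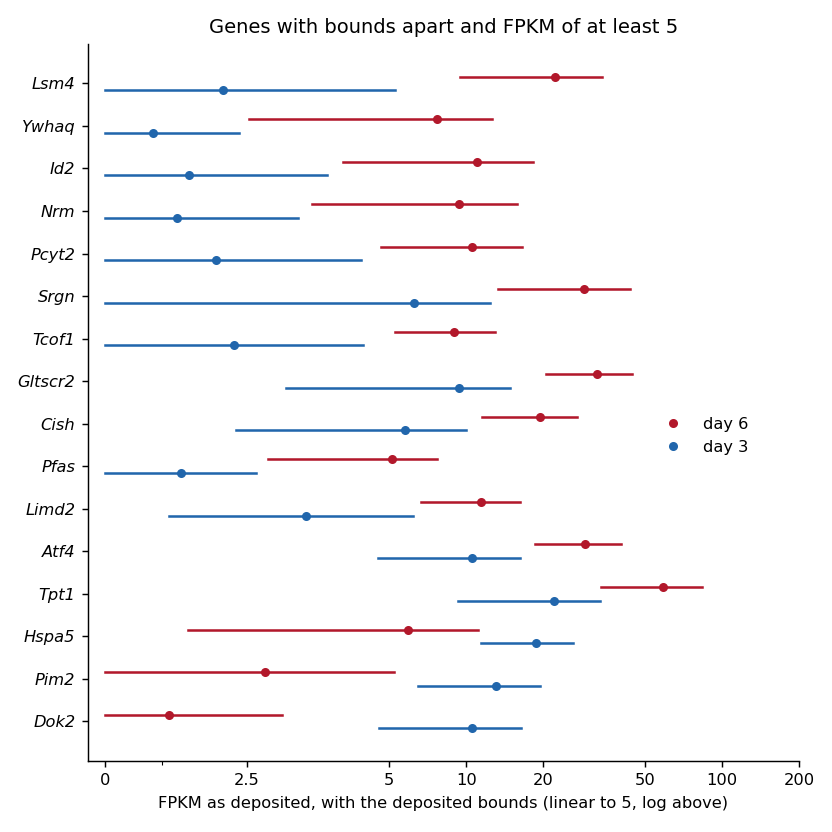
FPKM of 13 genes with the highest and the 3 with the lowest log2 differences among genes with deposited bounds apart and an FPKM of at least 5, with lines from lower to upper bound; the axis is linear to 5 and logarithmic above. Day 6 values (red) of Cish and Atf4 are 19.4 and 29.2, above 5.75 and 10.5 at day 3 (blue), and the order is the other way for Hspa5, Pim2 and Dok2.

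Several further genes had deposited bounds apart, but not scaled ones. Id2, which keeps E proteins from binding DNA, had 11 FPKM (4.19 to 18.2) at day 6 and 1.47 FPKM (0 to 3.9) at day 3. Srgn, the proteoglycan core of secretory granules, had 29 FPKM (13.3 to 43.6) at day 6 and 6.27 FPKM (0 to 12.4) at day 3. Ywhaq, a 14-3-3 adaptor protein, had 7.67 FPKM (2.53 to 12.6) at day 6 and 0.843 FPKM (0 to 2.35) at day 3. Nrm, a protein of the nuclear envelope, and Pcyt2, an enzyme of phosphatidylethanolamine synthesis, had 9.4 and 10.5 FPKM at day 6, against 1.26 and 1.96 FPKM at day 3. Pfas, an enzyme of purine synthesis, and Limd2, a LIM domain protein, had 5.14 and 11.4 FPKM at day 6, against 1.33 and 3.54 FPKM at day 3. All of these were higher at day 6, on 7.7 to 18.9 fragments at day 6 and 1.1 to 6.3 at day 3.

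Genes of the T cell receptor complex and its signalling were mixed. Dok2 (mm9 chr14:71174188-71178301), an adaptor that restrains receptor signalling, had 1.13 FPKM (0 to 3.11) at day 6, against 10.5 FPKM (4.82 to 16.4) at day 3, with bounds apart on both scales. Its log2 difference was -2.86, and the ratio on 0.7 and 7.3 fragments was 0.139 (0.00309 to 1.08), an interval that includes 1. Thy1, a surface glycoprotein of T cells, had 7.81 FPKM (3.07 to 13.3) at day 6 and 19.8 FPKM (11.4 to 27.7) at day 3. Trat1, an adaptor that stabilises the receptor, had 3.27 FPKM (0 to 7.8) at day 6 and 12.3 FPKM (2.42 to 21.8) at day 3. Lat, the scaffold phosphorylated after receptor engagement, was higher at day 6, with 16.3 FPKM (7.21 to 24.5) against 6.09 FPKM (1.34 to 10.7) at day 3. Cd4, the coreceptor of helper cells, had 14.4 FPKM (9.19 to 20.1) at day 6 and 6.74 FPKM (3.21 to 10.2) at day 3, with overlapping bounds.

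Of 24 genes of this list, 3 were at least 2-fold higher, 4 lower and 17 within 2-fold. Pooled fragments were 250 at day 6 and 201 at day 3, a ratio of 1.21 whose lower bound lay at 1. Leaving out the member with the most fragments gave 1.2 (0.977 to 1.48). Among immediate early genes, which follow receptor signals within the hour, Ier2 had 15.4 FPKM (7.01 to 23.4) at day 6 and 4.81 FPKM (1.09 to 8.7) at day 3. That list had 6 of 19 genes at least 2-fold higher and 4 lower, where all genes kept had 24.1% and 20.2%. Its pooled ratio was 1.12 (0.849 to 1.49).

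No gene kept in the Th2 lists had bounds apart, and 1 transcription factor gene was at least 2-fold higher at day 6. Gata3 (mm9 chr2:9778705-9800227) had 11 FPKM (6.08 to 15.5) at day 6 and 15.6 FPKM (10.3 to 20.6) at day 3, a ratio of 0.649 (0.349 to 1.18). Irf4, which acts with it in effector cells, had 20.4 FPKM (15.2 to 25.8) at day 6 and 21.9 FPKM (16.3 to 27.2) at day 3. Stat6, the transducer of the IL-4 signal, had 3.88 FPKM (0.935 to 6.54) at day 6 and 2.26 FPKM (0.435 to 4.35) at day 3. Il4ra, the IL-4 receptor chain, had 12.2 FPKM (8.03 to 16.1) at day 6 and 12.7 FPKM (8.77 to 16.6) at day 3. The bounds overlap for each of these. Of the 16 Th2 transcription factors kept, 15 were within 2-fold. The other, Nfatc2, a calcium-regulated factor, had 4.32 FPKM (1.37 to 7.52) at day 6 and 1.27 FPKM (0 to 4.02) at day 3, a ratio of 3.31 (1.17 to 11.5) with bounds that overlap. The length of Nfatc2 came from a reference transcript, so its fragments may be overstated and its interval too narrow. The list pooled to 241 fragments at day 6 and 235 at day 3, a ratio of 0.998 (0.831 to 1.2).

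The signature cytokines were at or near the floor on both days. Il5, Il13 and the transcription factor gene Maf were listed at 0 in both libraries, as was Nlrp3. Il4 was listed at 0 at day 6 and had 3.77 FPKM (0 to 18.9) at day 3, on about 1.4 fragments. Il9, a cytokine shared with other helper subsets, was listed at 0 at day 6 and had 4.25 FPKM (0 to 9.26) at day 3. A value of 0 in such tables can be a failed estimate, and no fold is given. Chemokine receptor and matrix genes of the Th2 list were measurable. Ccr4 had 6.05 FPKM (2.55 to 9.57) at day 6 and 5.01 FPKM (1.78 to 7.72) at day 3, and Ecm1 8.09 FPKM (1.01 to 15.2) at day 6 and 6.62 FPKM (0.946 to 12.3) at day 3. Of 9 type 2 cytokine and effector genes kept, 0 were at least 2-fold higher and 3 lower, with a pooled ratio of 0.854 (0.587 to 1.24).

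Markers of CD4 T cells, such as Cd3e, Cd4 and Thy1, were present and those of other cells were mostly at 0. Of the Th2 markers, Gata3 was present and Il4 and Ccr8 were at or near the floor. Il5, Il13 and Il1rl1 were at 0 on both days. Cd3e, a chain of the receptor complex, had 11 FPKM (3.72 to 17.3) at day 6 and 8.98 FPKM (3.46 to 15) at day 3. All markers of CD8 T cells (2 genes), NK cells (6), mast cells and basophils (6), and red cells and platelets (9) were at 0 on both days, as were the 8 Th17 genes. Of 8 B cell markers, 8 were at 0 at day 6 and 7 at day 3, the exception being Cd79b with 1.57 FPKM (0 to 4.14). The summed level of 10 myeloid markers was 0 FPKM at day 6 and 6.95 FPKM at day 3, from Cst3 with 5.56 FPKM and Sfpi1 with 1.39 FPKM. Cyba, the small membrane subunit of the phagocyte oxidase, had 2.87 FPKM (0 to 7.03) at day 6 and 18.9 FPKM (6.54 to 30.5) at day 3, and the part of these other cells in that difference was not tested. Of 7 stromal markers, Pecam1 was above 0 at day 6, with 1.14 FPKM (0 to 4).

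Genes of MHC class I and the interferon response had more pooled fragments at day 6. They pooled to 129 fragments at day 6 and 91 at day 3, a ratio of 1.38 (1.05 to 1.83), and 1.54 (1.12 to 2.14) without the member with the most fragments. Of 13 genes kept, 5 were at least 2-fold higher, 1 lower and 7 within 2-fold, where all genes kept had 24.1% higher and 20.2% lower. H2-D1, a classical MHC class I heavy chain, had 38.3 FPKM (24.5 to 52.4) at day 6 and 15.8 FPKM (8.33 to 23.9) at day 3. H2-T23, a nonclassical chain, had 9.07 FPKM (2.7 to 14.9) at day 6 and 1.65 FPKM (0 to 6.28) at day 3. Gbp2, an interferon-induced GTPase, had 5.38 FPKM (1.45 to 8.69) at day 6 and 0.717 FPKM (0 to 2.02) at day 3. B2m, the light chain of MHC class I, had 64.4 FPKM (37.3 to 91.2) at day 6 and 60.5 FPKM (34.7 to 84.9) at day 3. Reads of MHC class I genes can be shared between near-identical copies.

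Proteasome genes had more pooled fragments at day 6. Of 27 kept, 9 were at least 2-fold higher, 1 was lower and 17 were within 2-fold, where 24.1% of all genes kept were higher and 20.2% lower. The median log2 difference was 0.48, and 0.23 over the members above 0 in both libraries. They pooled to 113 fragments at day 6 and 80 at day 3, a ratio of 1.38 (1.02 to 1.85). Psma6, a subunit of the core particle, had 10.4 FPKM (1.78 to 17.8) at day 6 and 1.95 FPKM (0 to 4.98) at day 3. Psmb10, a catalytic subunit of the immunoproteasome, had 6.3 FPKM (1.4 to 11.2) at day 6 and 1.47 FPKM (0 to 3.91) at day 3. The call was lost when fragments were capped by the width of the bounds, at 1.33 (0.982 to 1.81). In the granule and S100 list, a ratio of 2.02 (1.03 to 4.13) rested on Srgn and was 1.27 (0.513 to 3.22) without it.

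Genes of cholesterol and fatty acid synthesis had fewer pooled fragments at day 6. Among the 21 kept, day 6 was lower by 2-fold or more in 5, higher in 1 and within 2-fold in 15, where 20.2% of all genes kept were lower and 24.1% higher. The median log2 difference was -0.40, against -0.03 over all genes above 0 in both libraries. Pooled fragments were 163 at day 6 and 206 at day 3, a ratio of 0.77 (0.623 to 0.951), and 0.753 (0.573 to 0.986) without the member with the most fragments. On deposited values, without scaling, it was 0.85 (0.688 to 1.05). Lss, which closes the sterol rings, had 0.6 FPKM (0 to 3) at day 6 and 2.24 FPKM (0 to 5.04) at day 3. Scd2, a desaturase and the list's most abundant member, had 21.4 FPKM (16.1 to 26.8) at day 6 and 24.3 FPKM (18.7 to 30) at day 3. Fasn, the fatty acid synthase, had 4.99 FPKM (3.22 to 6.8) at day 6 and 4.39 FPKM (2.83 to 6) at day 3.

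For glycolysis and DNA replication, the pooled intervals included 1. All 15 glycolysis genes kept were within 2-fold, with 444 fragments at day 6 and 430 at day 3 and a ratio of 1.01 (0.878 to 1.15). Pkm2, the pyruvate kinase gene, had 72.2 FPKM (58.2 to 86.9) at day 6 and 92.7 FPKM (76 to 110) at day 3, and Gapdh 45.3 FPKM (27.4 to 62.1) at day 6 and 26.3 FPKM (14.8 to 37.6) at day 3. DNA replication genes pooled to 1.02 (0.833 to 1.25) and mitosis genes to 1.11 (0.946 to 1.29). On values as deposited, without scaling, the mitosis list had a ratio of 1.22 (1.04 to 1.43). Single cell cycle genes went both ways. Ccna2, cyclin A, had 8.66 FPKM (4 to 13.3) at day 6 and 3.11 FPKM (0 to 6.21) at day 3. Aurka, a mitotic kinase, was listed at 0 at day 6 and had 4.7 FPKM (0.869 to 7.82) at day 3. Actin cytoskeleton genes pooled to 0.969 (0.878 to 1.07) over 812 fragments at day 6 and 816 at day 3.

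Among genes of resting and homing T cells, Ccr7, the receptor that guides T cells into lymph nodes, had 2.91 FPKM (0 to 5.4) at day 6 and 9.95 FPKM (4.19 to 15.1) at day 3, a ratio of 0.243 (0.0441 to 0.902). Of 18 genes kept, 1 was at least 2-fold higher, 3 were lower and 14 within 2-fold. Among genes linked to regulatory T cells, Folr4, the folate receptor family member Juno, had 38 FPKM (22.8 to 53.6) at day 6 and 15.6 FPKM (5.69 to 25.9) at day 3. Tnfrsf4, the costimulatory receptor OX40, had 26.3 FPKM (13.9 to 38.5) at day 6 and 14.8 FPKM (5.73 to 22.9) at day 3. Foxp3, the lineage factor of regulatory T cells, was listed at 0 on both days, as were Ikzf2 and Capg. Of 5 genes of that list kept, 2 were at least 2-fold higher, 0 lower and 3 within 2-fold. Among all genes kept, 24.1% were higher and 20.2% lower. That list pooled to 1.15 (0.858 to 1.54) in all and to 1.8 (1.09 to 3.02) without Il2ra.

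Of the 39 lists, 6 had a pooled interval above 1 and 2 an interval below 1, with no adjustment for their number. The second lower list was long noncoding and non-polyadenylated RNAs, at 0.772 (0.72 to 0.828), in which Rpph1, the RNA of ribonuclease P, made up most of the fragments. Without it the ratio was 0.777 (0.649 to 0.929). Malat1, a nuclear RNA, had 47 FPKM (40 to 54) at day 6 and 54 FPKM (46.7 to 61.4) at day 3. FPKM of such short RNAs as Rpph1 and Rmrp lie outside their own bounds, so no difference is read from either alone. The ratio of 0.772 is built mostly on the Rpph1 values, so that ratio and its narrow interval are uncertain.

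**Figure D4:**
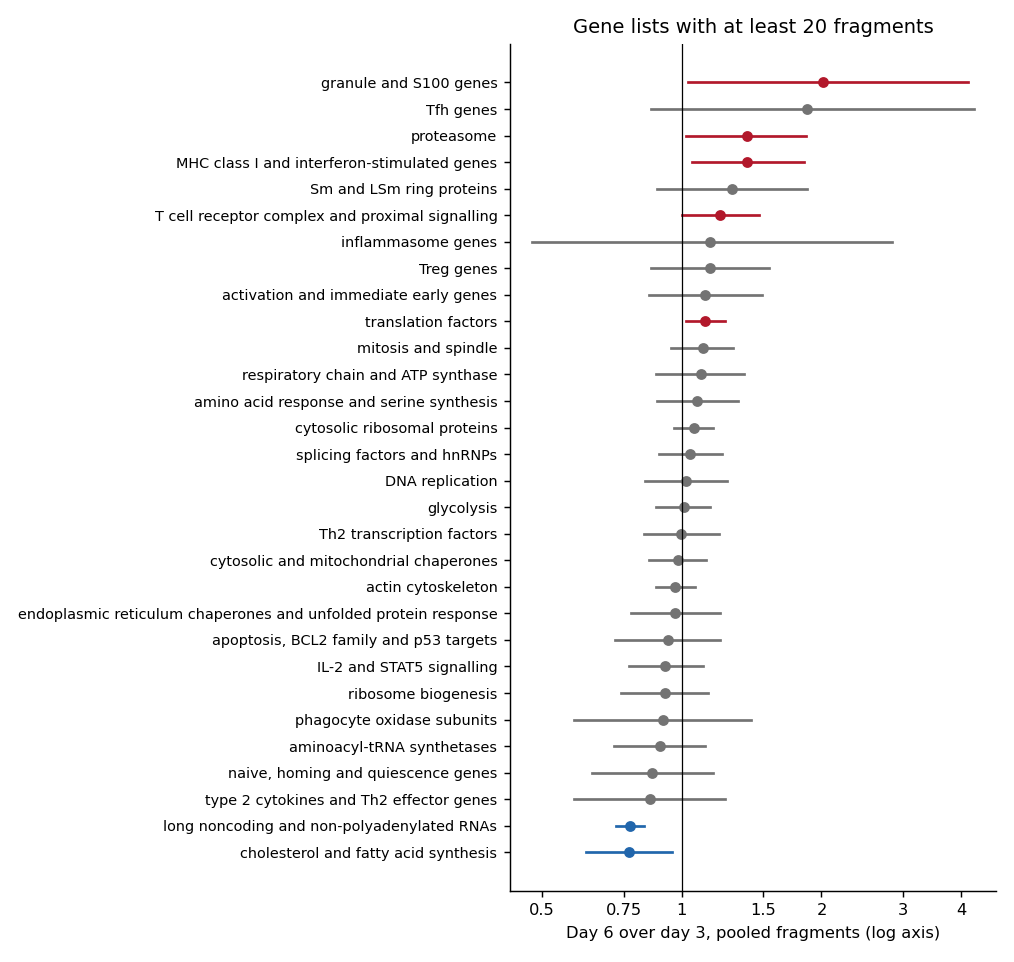
Ratio of pooled fragments, day 6 over day 3 after scaling, for the 30 gene lists with at least 20 fragments, on a log axis; lines are exact 95% intervals for counting error and the vertical line marks a ratio of 1. Red lists have intervals above 1, blue ones below, and glycolysis at 1.01 and Th2 transcription factors at 0.998 lie on the line.

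A few genes were seen in 1 library only with a lower bound above the floor of 3 fragments in the other. At day 6 these were Hmga1, Tra2a and Igf1r. Hmga1, a chromatin protein of dividing cells, had 9.88 FPKM (4.39 to 25.9) at day 6 and was listed at 0 with an upper bound of 12.6 at day 3. Igf1r, the receptor for insulin-like growth factor, had 1.8 FPKM (0.891 to 2.82) at day 6 and was listed at 0 at day 3, and the interval of its ratio began at 2.7. At day 3 Xist was the 1 such gene under the naming rule.

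The same days of the NLRP3KO culture share no library with the WT pair. Its day 6 library was shallow, with about 6188 fragments on genes against 28341 at day 3, and 71% of the genes above 0 in either library of that pair were lower at day 6 and 29% higher. At least 2-fold, 21% of the genes kept there were higher and 51.8% lower. Of the 23 genes that were higher in WT with deposited bounds apart, histones left out, 22 were above 0 in the NLRP3KO pair, 10 higher at day 6 and 12 lower, of which 2 and 3 were at least 2-fold apart. Pooled without Lars2, which held most of the fragments, they had a ratio of 0.691 (0.545 to 0.869), next to 0.73 (0.71 to 0.75) for all genes. Of the 7 genes lower in WT, 2 were higher and 5 lower, with a pooled ratio of 0.786 (0.314 to 1.73). Lists called in WT did not all recur in NLRP3KO. Genes of MHC class I and the interferon response, higher in WT, pooled to 0.424 (0.24 to 0.704), on 17 fragments at day 6. Cholesterol and fatty acid synthesis, lower in WT, pooled to 1.04 (0.798 to 1.34). Both intervals leave out the 0.73 of all genes. Those of translation factors, 0.693 (0.564 to 0.845), and proteasome genes, 0.71 (0.394 to 1.21), include it.

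Single genes were on the same side as in WT or on the other. Cish had 15.3 FPKM (3.57 to 28.5) at day 6 and 10.4 FPKM (4.87 to 16.5) at day 3 in NLRP3KO cells, a log2 difference of 0.40. Pim2 and Hspa5 had 4.07 and 3.23 FPKM at day 6, against 6.66 and 7.93 FPKM at day 3, lower as in WT but with overlapping bounds. Srgn and Gltscr2 were on the other side, with 19.5 and 16.4 FPKM at day 6 and 58.4 and 35.8 FPKM at day 3. Rps3 had 53.4 FPKM (24.6 to 82.1) at day 6 and 104 FPKM (79.5 to 128) at day 3, with deposited bounds that overlap. Its ratio of 0.484 (0.232 to 0.915) was on the same side as in WT. The ratio of all genes of that pair, 0.73 (0.71 to 0.75), lies inside this interval. Most genes there were lower at day 6, so lower values of Pim2, Hspa5 and Rps3 do not show that they followed WT. No difference between the genotypes was tested.

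**Figure D5:**
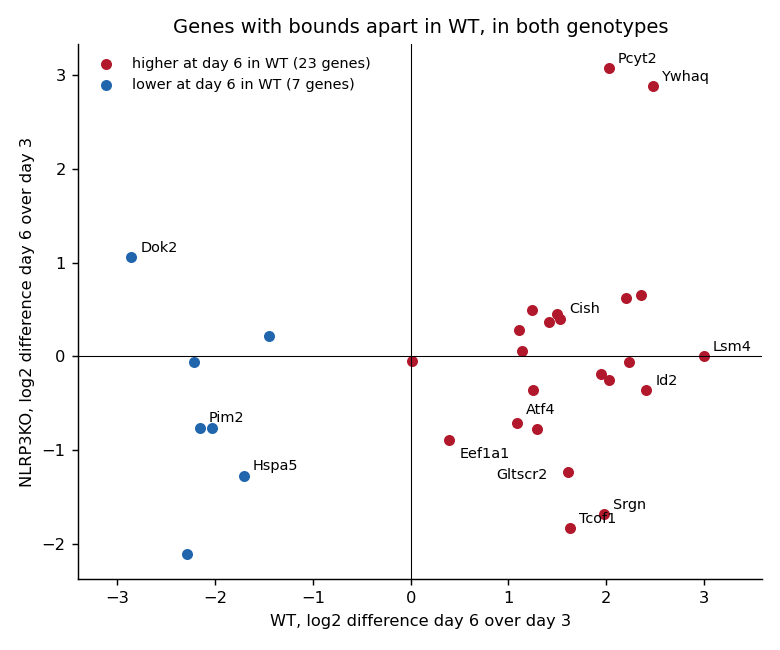
Log2 difference of day 6 over day 3 in NLRP3KO cells (vertical) and in WT cells (horizontal) for the 30 genes with deposited bounds apart in WT; red genes are higher and blue genes lower at day 6 in WT. Red points lie on both sides of 0 on the vertical axis, with Pcyt2 and Ywhaq, both listed at 0 at day 3 in NLRP3KO, at 3.07 and 2.88 and Tcof1 at -1.83.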

How the data were processed

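RNA was sequenced on a MiSeq instrument after 12 PCR cycles, per the labels' protocols. For every library a gene table was deposited that holds FPKM, lower and upper bounds and a status, per the file headers. TopHat, Cufflinks and mm9 are named in the submitters' processing notes. Of 23700 entries, 23415 had a status of OK.

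A count test is not suited to FPKM, and with 1 library per group no p-value is given. FPKM were scaled by the median ratio over 1059 genes that reached an FPKM of 1 in each of the 6 libraries (factors 1.83 at WT day 6 and 2.02 at WT day 3), and log2 differences used a pseudocount of 1, which understates differences of low genes. Genes that reached an FPKM of 1 in either WT library were kept.

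Fragments per gene were inferred: in 93.4% (day 6) and 93.7% (day 3) of genes with a lower bound above 0, the bounds stood in a ratio of whole numbers within a tolerance of 2e-05, and single-exon models gave normalization totals of 562337 fragments (day 6) and 604216 (day 3). Where bounds gave no length, the longest coding transcript of GENCODE M21 was used, matched by symbol. Lists were pooled over genes longer than 300 bases, with exact binomial intervals. A list is called where that interval excludes 1.

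The members, the 39 lists (743 symbols, 739 found) and the tests were chosen with earlier results of these data known. Genes were named by a rule: 8 genes of the Th2 pathway and Nlrp3; up to 14 genes in each direction with FPKM of at least 5 and bounds apart; up to 6 listed at 0 in the other library; up to 4 members of each list at least 2-fold apart; and the 10 highest. Small RNAs, antigen receptor segments, unnamed models and histone genes were left out of the rankings. Some genes that the rule names are not reported here. Other list members are examples chosen after their values were seen. Sequences were matched by symbol to RefSeq promoters of GRCm38.p6, with 3 of 3 found. Scripts ran in Python 3.11.15 with numpy 2.4.6, pandas 2.3.3, scipy 1.17.1 and matplotlib 3.10.9, and were tested on simulated data.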

Additional observations from a re-analysis of the deposited data

Results flagged for a closer look

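Eef1a1 went opposite ways between the days in the 2 genotypes, with deposited bounds that do not overlap in either. In WT cells it had 376 FPKM (316 to 413) at day 6 and 260 FPKM (215 to 296) at day 3, a log2 difference of 0.39 and a ratio of 1.31 (1.09 to 1.58). In NLRP3KO cells it had 216 FPKM (151 to 280) at day 6 and 366 FPKM (305 to 410) at day 3, a log2 difference of -0.89 and a ratio of 0.542 (0.37 to 0.773). With 1 library per group, the difference between the genotypes was not tested. All genes of the NLRP3KO pair pooled to a ratio of 0.73 (0.71 to 0.75), which lies inside the interval of Eef1a1 there. After scaling, the WT bounds overlapped.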

How the results depend on the processing

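Against 1346 genes at least 2-fold higher at day 6 and 1129 lower, a minimum FPKM of 5 left 257 higher and 146 lower. Without a filter 1887 were higher and 1733 lower. Genes above 0 in both libraries gave 462 higher and 406 lower, and those also with bounds apart 24 higher and 7 lower. Requiring bounds apart after scaling, chosen after seeing the data, gave 9 higher and 17 lower, so the side with more calls turned; multiplying by factors of 1.83 (day 6) and 2.02 (day 3) is what moves these bounds. Leaving out genes on X and Y, also added later, gave 1307 higher and 1093 lower. The other scalings, pseudocounts and a 3-fold limit kept both counts within 1.5 times. The log2 difference of Lars2, 0.01, was -0.00 when the summed fragments set the scaling. The genes higher in WT pooled to 0.93 (0.862 to 1) in NLRP3KO and to 0.691 without Lars2. Of 159 other values of list ratios, 147 kept their call, 7 lost it and 5 gained one, among them mitosis (1.22, 1.04 to 1.43) and ribosomal proteins (1.17, 1.06 to 1.29) on values as deposited, Sm and LSm proteins (1.67, 1.08 to 2.61) and phagocyte oxidase subunits (0.487, 0.243 to 0.933) without their largest member. No library could be left out, since each day has 1. No paired analysis was possible because the labels give no replicate numbers. Depth limits single genes: 3 fragments on 2 kb are 2.67 FPKM at day 6 and 2.48 FPKM at day 3.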

Other observations

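Comparing bounds after scaling added 11 genes that were lower at day 6, chosen after their values were seen. Ywhaz, a 14-3-3 adaptor protein like Ywhaq, had 3.35 FPKM (0.514 to 7.61) at day 6 and 12.5 FPKM (7.3 to 17.7) at day 3, a ratio of 0.234 (0.0784 to 0.583), whereas Ywhaq was higher at day 6. Map3k1, a kinase at the head of a JNK cascade, had 0.521 FPKM (0 to 1.28) at day 6 and 2.67 FPKM (1.19 to 4.04) at day 3. Actr2, a subunit of the Arp2/3 complex that nucleates branched actin, had 1.51 FPKM (0 to 2.91) at day 6 and 5.64 FPKM (2.71 to 8.57) at day 3. Tagln2, an actin-binding protein, had 4.3 FPKM (0 to 7.72) at day 6 and 14.7 FPKM (7.19 to 22.8) at day 3. The actin cytoskeleton list as a whole had a ratio of 0.969 (0.878 to 1.07).

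Further genes with deposited bounds apart or added by the scaling were picked after their values were seen. Smarca5, the motor of ISWI remodellers, had 0.395 FPKM (0 to 1.15) at day 6 and 3.68 FPKM (1.43 to 5.71) at day 3. Mll3, a methyltransferase of enhancers, had 0.213 FPKM (0 to 0.529) at day 6 and 1.39 FPKM (0.689 to 2.07) at day 3. Setd8, which methylates histone H4, had 0.685 FPKM (0 to 1.95) at day 6 and 5.11 FPKM (1.81 to 7.86) at day 3. Exoc2, a subunit of the exocyst, and Scrib, a polarity scaffold, had 0.433 and 0.329 FPKM at day 6, against 3.63 and 2.76 FPKM at day 3. Higher at day 6 were 3 replication-dependent histone genes. Hist1h2bc, Hist1h2bg and Hist1h3f had 33.2, 74.6 and 55.5 FPKM at day 6, against 5.57, 17.5 and 19.5 FPKM at day 3. Histone genes have near-identical copies, so which copy gave the reads is uncertain. Their transcripts mostly lack poly(A) tails, and both libraries were made by depletion of ribosomal RNA. In NLRP3KO cells these 3 genes had 0, 0 and 1.29 FPKM at day 6 and 5.64, 1.62 and 23.9 FPKM at day 3.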
